A study of Mus musculus with 10 samples.

Results

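The 9 genes Syt1, Snap25, Stx1a, Syp, Vamp2, Syn1, Syn2, Rab3a and Scg3 encode proteins of synaptic vesicles, of the machinery that fuses them with the cell membrane, and of secretory granules. They were taken by symbol, and each matched 1 of the 53379 Ensembl genes counted in every library. Scg3 was selected on measured values of these libraries, its difference between the neutral group and the other groups, so its comparisons with neutral are given below as values with no test and support nothing. Neurons load transmitter into small vesicles, and release follows when a vesicle protein, Vamp2, winds around Stx1a and Snap25 of the cell membrane in what is called a SNARE complex. Syt1 senses the calcium that triggers fusion, synapsins (Syn1 and Syn2) cluster the reserve of vesicles, Rab3a guides docking, and Syp is an abundant protein of the vesicle membrane. Peptides travel in a separate, dense-core granule, in which granins such as Scg3 help to pack the cargo, and Scg3 is made by astrocytes as well as by neurons.

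The libraries hold RNA of EYFP-positive material sorted from the dissociated hippocampal region of male mice. Their age is given as 5 weeks where the tissue preparation is described, while the study's description of its subjects gives an older age. The labels and methods call it cells and the study's results text calls it nuclei, so which RNA was measured is not settled. All groups are labelled as carrying ChR2-EYFP, although the methods also describe mock as an untagged control. The tag was delivered by a pair of AAV9 viruses, of which one makes the transactivator tTA under control of the c-Fos promoter and the other holds ChR2-EYFP behind a TRE promoter that tTA switches on while doxycycline is withheld. Such a tag reports c-Fos promoter activity and viral uptake and does not select a cell type. The study asked whether cells tagged during appetitive and aversive experience differ in their RNA.

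The mock group (n = 3 libraries) came from mice in the home cage. The aversive group (n = 2) received 4 foot shocks of 1.5 mA, each lasting 2 s, and the appetitive group (n = 2) was exposed to a female for 1 h by the labels and for longer by the study's methods. The neutral group (n = 3) explored the conditioning cage with neither stimulus. The labels state that 8 mice were pooled for each condition, while the methods give a smaller number for mock. Neither source tells if each library was made from a pool of its own, so n counts libraries and the p-values measure only the spread between libraries. The neutral libraries were prepared with another library kit and read as 100 bp pairs on another sequencer, whereas all others were read as single 40 bp reads, so the kit and the neutral experience cannot be told apart in any comparison with that group.

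Total counts per library were between 20505550 and 49880042 in mock, 27159427 and 39172609 in aversive, 16968588 and 26647573 in appetitive, and 60077131 and 67650693 in neutral. Levels are given as CPM, each gene's count relative to the TMM-scaled total of its library, on which 3 counts, taken as the smallest level that the depth can show, correspond to between 0.0346 and 0.235 CPM. PCR copies are not told apart, so this floor covers counting error only. Of the 9 genes, 9 passed the filter on low counts and are among the 19754 genes tested.

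Markers of cell types were read beside the 9 genes. The summed level of 8 neuron markers was 168, 81.9 and 194 CPM in the mock libraries, 198 and 833 CPM in the aversive, 177 and 55.9 CPM in the appetitive, and 39.8, 98.3 and 55.2 CPM in the neutral libraries. The neuron marker Rbfox3 had 3.02 to 7.05 CPM in mock, 35.03 and 16.0 CPM in aversive, 1.17 and 0.105 CPM in appetitive, and 0.173 to 5.28 CPM in neutral. Of the 8 neuron markers, the fitted value in appetitive against mock was lower for 5 and higher for 3. The means of Elavl4, Meg3 and Tubb3 were 36.8, 32.1 and 16.2 CPM in appetitive and 4.67, 14.9 and 10.8 CPM in mock. Gad1, which makes the transmitter GABA, had 0 counts in both appetitive libraries and in 2 of the 3 neutral libraries. Slc17a7, the vesicular glutamate transporter of excitatory cells, had 9 and 12 counts in the appetitive libraries and 1, 1 and 432 counts in the neutral libraries. The summed neuron markers were thus below those of oligodendrocytes in all 10 libraries, and Slc17a7 was under 1 CPM in both appetitive libraries, while Camk2a, another gene of excitatory cells, had 105.9 CPM in appetitive replicate 1. The myelin gene Mbp alone took 22.8%, 20.4% and 3.37% of the counts in mock, 23.7% and 1.09% in aversive, 30.8% and 0.983% in appetitive, and 0.601% to 1.84% in neutral libraries. Mock replicates 1 and 2, aversive replicate 1 and appetitive replicate 1 were thus set apart from the other 6 libraries by the share of their counts in 1 myelin gene, and each was also left out in turn.

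Each comparison between groups was made with edgeR's quasi-likelihood F test, fitted to all 10 libraries and two-sided, and a gene was called at an adjusted p under 0.05. In appetitive against aversive, 2 of the 9 genes were called, Stx1a and Syn1, both lower in the appetitive libraries, where 1.80% of all tested genes were called. In appetitive against mock, 1 of 9 was called, Stx1a, against 1.98% of all genes. In appetitive against neutral, 2 of 8 were called, Stx1a lower and Snap25 higher, against 6.17% of all genes. In aversive against neutral, 0 of 8 were called, against 0.0405% of all genes, with 2 at an unadjusted p under 0.05 (19.1% of all genes) and 3 called by DESeq2 (16.0%). In aversive against mock, 0 of 9 were called, against 0.00% of all genes, with 1 at an unadjusted p under 0.05 (9.96%) and 1 called by DESeq2 (7.19%). In neutral against mock, 0 of 8 were called, against 0.0861% of all genes, with 1 at an unadjusted p under 0.05 (13.5%) and 0 called by DESeq2 (7.55%). In appetitive against aversive, mock and neutral, 20.0%, 23.8% and 29.3% of all genes had an unadjusted p under 0.05 and DESeq2 called 19.5%, 23.7% and 29.6%. Because the comparisons share libraries, their results are not independent of one another.

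The counts of called genes changed when single libraries were left out. In appetitive against aversive, the count was 0 when any 1 mock or any 1 neutral library was left out, 2 without either aversive library or without appetitive replicate 1, and 3 without appetitive replicate 2. In appetitive against neutral it was 0 without mock replicate 1 or 2 or any 1 neutral library, 1 without mock replicate 3 (Snap25) or appetitive replicate 1 (Syn1), and 3 without appetitive replicate 2. In appetitive against mock it was 0 without any 1 mock or neutral library, 2 without aversive replicate 1, aversive replicate 3 or appetitive replicate 2, and 1, Syn1 in place of Stx1a, without appetitive replicate 1. In aversive against neutral it was 2, Snap25 and Syn1, without either appetitive library. The libraries not compared entered these fits through the shared estimate of the spread between libraries. In appetitive against aversive, the log2 fold change hardly moved where leaving out a mock or neutral library ended the calls. It then lay between -9.21 and -9.05 for Stx1a, beside -9.06 with all libraries. For Syn1 it lay between -8.68 and -8.51, beside -8.52. Leaving 1 of 2 libraries out of a group assumes that the remaining one varies like the other groups.

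Over all tested genes, the middle value of the log2 fold change, its median, was -0.48 in appetitive against aversive, -1.45 in appetitive against mock and -0.91 in appetitive against neutral, and it moved to -0.34, -1.17 and -0.63 with DESeq2's size factors and to -0.88, -1.93 and -1.45 with library totals. The values below are read beside this shift. For the 9 genes, the medians were -1.30 against aversive and -0.60 against mock. In aversive against mock, the fitted value was higher for 9 of the 9 genes under each of these scalings, beside 9285 of the 19754 tested genes with TMM. Their median was 1.09 beside -0.13 over all genes. In aversive against neutral the fitted value was higher for 7 of the 8 genes other than Scg3 under each scaling, beside 9050 of 19754 with TMM. The genes were read in the same 2 aversive libraries, and 0 were called in either comparison. Against mock, the values of Scg3 (0.29, SE 0.667), Vamp2 (0.41, SE 0.574), Syp (0.43, SE 1.61) and Syn2 (0.8, SE 1.74) were smaller than their SE. In the comparisons of the appetitive group, the sign depended on the scaling for some genes. Against aversive, Snap25 and Vamp2 were higher in appetitive with TMM and lower with library totals, against mock Rab3a and Scg3 were lower with TMM and higher with DESeq2's size factors, and against neutral Vamp2 was lower with TMM and higher with those factors.

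Stx1a, the syntaxin of the SNARE complex, was lowest in the appetitive libraries and highest in the aversive ones. Its gene (ENSMUSG00000007207) lies on chromosome 5 of GRCm38 from 135023482 to 135051100 on the plus strand and overlaps no other annotated gene. The mock libraries had 7.80, 14.5 and 9.96 CPM, the aversive libraries 33.2 and 38.2 CPM, the appetitive libraries 0.0782 and 0.0524 CPM, and the neutral libraries 4.18, 9.10 and 9.25 CPM. Both appetitive values come from 1 count each and lie below the floor, both aversive values lie above every mock and neutral value, and mock and neutral overlap. With 2 counts over the appetitive group against 2568 over the aversive group, the level was 586-fold higher in aversive (exact 95% counting interval 162 to 4840, adjusted p = 0.0334). The ratio to the appetitive group was 163 for mock (45.1 to 1350, adjusted p = 0.0435) and 124 for neutral (34.3 to 1030, adjusted p = 0.0334). These intervals cover counting error alone. Here and below, a ratio to a group whose libraries lie below the floor is not an exact fold. Over the alternatives the adjusted p of Stx1a lay between 5.38e-10 and 0.711 in appetitive against aversive, between 3.79e-07 and 0.179 against mock and between 8.63e-07 and 0.128 against neutral. Its log2 fold change moved less, from -9.61 to -8.91 against aversive, -7.95 to -7.06 against mock and -7.62 to -6.5 against neutral. The call against aversive was lost without any 1 mock library (adjusted p 0.0784 to 0.0838) or any 1 neutral library (0.0578 to 0.0923). The call against mock was lost without any 1 mock library (0.108 to 0.119), any 1 neutral library (0.0742 to 0.111) or appetitive replicate 1 (0.0576). The call against neutral was lost without any 1 mock library (0.0709 to 0.0763), any 1 neutral library (0.0537 to 0.0895) or appetitive replicate 1 (0.0539). Between aversive and mock libraries Stx1a differed on the log2 scale by 1.73 (SE 1.07, adjusted p = 0.573), and between aversive and neutral libraries 2.25 (SE 1.07, adjusted p = 0.283). DESeq2 called the latter (adjusted p 0.0153), but not with library totals (0.153).

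Low counts were common in the appetitive group, in which 39.0% of the tested genes had 3 counts or fewer in both libraries. Of the 9 genes, 1, Stx1a, was among them. A rule chosen after the values were seen, that both appetitive libraries lie below every other library, held for 3 of the 9 genes (Syt1, Stx1a and Syn1) and for 10.8% of all tested genes. The matching rule that both aversive libraries lie above every mock and neutral library held for 2 of the 9 (Stx1a and Syn1) and for 5.75% of all tested genes. In bulk samples, fewer cells of a type and less RNA per cell cannot be told apart.

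Snap25 supplies the other membrane-bound part of the SNARE complex and lies on chromosome 2 from 136713453 to 136782428 on the plus strand (ENSMUSG00000027273). Its level was 136, 117 and 44.2 CPM in the mock libraries, 422 and 123 CPM in the aversive, 577 and 154 CPM in the appetitive, and 24.4, 15.1 and 21.2 CPM in the neutral libraries. The 3 neutral libraries were the lowest of the 10, both appetitive libraries were above every mock library, and the aversive libraries overlapped both of those groups. Of the 8 genes other than Scg3, 1, Snap25, had all neutral libraries below every other library, as did 2.96% of all tested genes. In appetitive against neutral, Snap25 was higher, by 4.18 on the log2 scale (SE 0.860, adjusted p = 0.0245). That value rests partly on appetitive replicate 1, without which it was 2.84 (adjusted p = 0.0785), while without appetitive replicate 2 it was 4.76. With library totals as the scaling it was 3.24, and the adjusted p was also above 0.05, from 0.0556 to 0.0833, without mock replicate 1 or 2 or any 1 neutral library. Over all alternatives that adjusted p lay between 0.000151 and 0.0951. The aversive libraries differed from neutral by 3.75 (SE 0.846, adjusted p = 0.115), a value that was called without appetitive replicate 1 (adjusted p = 0.0385) or 2 (0.0382), with no filter (0.00588), at a minimum of 10 counts in every library (0.0491) and by DESeq2 (0.00259, or 0.000607 with library totals), in a range of 0.000607 to 0.323 over the alternatives. In neutral against mock the fitted log2 difference was -2.29 (SE 0.763, adjusted p = 0.213).

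Vamp2, the vesicle-bound partner of Stx1a and Snap25, varied least among the 9 genes. It lies on chromosome 11 from 69088490 to 69092384 on the plus strand (ENSMUSG00000020894). The mock libraries had 165, 123 and 114 CPM, the aversive libraries 212 and 145 CPM, the appetitive libraries 156 and 205 CPM, and the neutral libraries 245, 175 and 195 CPM. All groups overlapped except that each neutral library was above each mock library, and the highest library had 2.15 times the level of the lowest. In the same libraries the ratio of highest to lowest was 38.1 for Snap25, and Stx1a ran from 1 count to 38.2 CPM. The 3 partners of the complex thus differed in how far their levels varied. Vamp2 was called in 0 of the 6 comparisons by edgeR and 0 by DESeq2, with an unadjusted p under 0.05 in 0 and an adjusted p from 0.650 to 1.00.

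Syt1, the calcium sensor of the vesicle, lies on chromosome 10 from 108497650 to 109010982 on the minus strand (ENSMUSG00000035864). It had 7.13, 4.53 and 10.4 CPM in mock, 2.30 and 63.7 CPM in aversive, 0.547 and 0.0 CPM in appetitive, and 33.0, 13.2 and 10.3 CPM in neutral libraries. The appetitive libraries, with 7 and 0 counts, were the lowest of the 10, and the 2 aversive libraries enclosed the whole range of mock and neutral. The fitted log2 difference for Syt1 was -6.94 (SE 2.30, adjusted p = 0.150) in appetitive against aversive, -6.13 (SE 2.18, adjusted p = 0.0999) against neutral and -4.77 (SE 2.04, adjusted p = 0.192) against mock. DESeq2's Wald test called Syt1 in each of these 3 comparisons, as it did 19.5% to 29.6% of all tested genes, and edgeR in 0, where its unadjusted p was under 0.05 in 3. Over the alternatives the value against aversive ran from -13.63 without appetitive replicate 1, where only a library with 0 counts is left, to -3.11 without aversive replicate 3. Against neutral the value ran from -12.78 to -5.16, and against mock from -11.55 to -3.93.

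Syn1, a synapsin that ties vesicles into the reserve cluster, was highest in the aversive libraries. It lies on chromosome X from 20860511 to 20921004 on the minus strand (ENSMUSG00000037217) and shares 9 exon bases with Araf on the other strand, which unstranded counting does not separate. The mock libraries had 17.6, 9.01 and 17.3 CPM, the aversive libraries 110 and 106 CPM, the appetitive libraries 0.547 and 0.0524 CPM, and the neutral libraries 10.8, 5.87 and 4.78 CPM. The 2 aversive libraries were within 5 CPM of each other and above all others, the appetitive libraries, with 7 and 1 counts, were below all others, and mock and neutral overlapped. In appetitive against aversive the fitted log2 difference was -8.52 (SE 1.62, adjusted p = 0.0337), lower in each appetitive library than in each aversive one. It was -11.08 without appetitive replicate 1, where it rests on 1 count, and -7.75 without appetitive replicate 2, and both values were called. The adjusted p was 0.0723 to 0.0783 without any 1 mock library and 0.0578 to 0.0867 without any 1 neutral library, and it lay between 4.24e-13 and 0.711 over the alternatives. Against mock, the appetitive libraries differed by -5.63 (SE 1.41, adjusted p = 0.0647), and against neutral by -4.60 (SE 1.34, adjusted p = 0.0618). Over the alternatives these 2 values ran from -8.27 to -4.93 and from -7.1 to -3.77. The difference from mock was called without aversive replicate 1 (adjusted p 0.0377), aversive replicate 3 (0.0402) or appetitive replicate 1 (0.0335), with library totals in edgeR (0.0481) and by DESeq2 (1.36e-05, or 8.74e-08 with library totals), and lay between 8.74e-08 and 0.173 over the alternatives. The difference from neutral was called without appetitive replicate 1 (0.0324), with library totals in edgeR (0.0431) and by DESeq2 (0.000478, or 4.85e-06 with library totals), and lay between 4.85e-06 and 0.218. The aversive libraries differed from mock by 2.89 (SE 1.07, adjusted p = 0.473). DESeq2 called that difference (0.0269), but not with library totals (0.052). It was called in 1 of 18 alternatives, with an adjusted p between 0.0269 and 0.783. From neutral the aversive libraries differed by 3.92 (SE 1.11, adjusted p = 0.155), or by 3.98 without appetitive replicate 1 or 2. DESeq2 called the difference from neutral (0.000523, or 0.00184 with library totals), and its adjusted p lay between 0.000523 and 0.419 over the alternatives.

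The level of Syn1 did not order the libraries as the summed neuron markers did. Appetitive replicate 1 had a neuron marker sum of 177 CPM, close to the 168 and 194 CPM of mock replicates 1 and 3, but 0.547 CPM of Syn1 where these had 17.6 and 17.3 CPM. The most abundant neuron marker was Elavl4 in appetitive replicate 1 and Map2 in those mock libraries, and 5 of the 8 were above 3 counts in appetitive replicate 1 and 8 of 8 in each of those mock libraries. Elavl4 alone made up 73.66 of the 177 CPM. Some neuron markers were low in that library along with Syn1, with 1 count of Nefl, 2 of Snhg11 and 0 of Nefm. Their levels were 0.0782, 0.156 and 0 CPM, beside 34.2, 7.29 and 2.63 CPM in mock replicate 1. Rbfox3 (1.17 beside 7.05 CPM) and Map2 (48.25 beside 98.55 CPM) were also lower than in mock replicate 1. Elavl4 (73.66 beside 3.58 CPM), Tubb3 (28.6 beside 7.92 CPM) and Meg3 (25.1 beside 6.53 CPM) were higher, so the sum does not stand for each marker. In appetitive against aversive, 7 of the 8 neuron markers were lower (median -3.94) and 1 was called lower, against 1.80% of all tested genes. All 4 markers of excitatory neurons (median -4.81) and all 3 tested markers of inhibitory neurons (-4.59) were lower, with 0 called, beside -0.48 over all genes. Whether the make-up of the sorted cells contributed to the level of Syn1 was not tested.

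Syn2, the second synapsin, lies on chromosome 6 from 115134902 to 115282006 on the plus strand (ENSMUSG00000009394) and shares 90 exon bases with Timp4, an inhibitor of metalloproteinases on the other strand. Its level was 45.4, 19.2 and 15.2 CPM in mock, 69.4 and 23.0 CPM in aversive, 0.0 and 35.1 CPM in appetitive, and 5.66, 1.76 and 8.98 CPM in neutral libraries. The 2 appetitive libraries, with 0 and 670 counts, were the lowest and the third highest of the 10. Syn2 was called in 0 of 6 comparisons by edgeR and 0 by DESeq2, with an unadjusted p under 0.05 in 0 and an adjusted p from 0.364 to 0.915. Without appetitive replicate 2 the only appetitive library left has 0 counts, and Syn2 was then called in all 3 comparisons of the appetitive group.

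Syp and Rab3a complete the vesicle genes. Syp (chromosome X from 7638471 to 7653256, plus strand, ENSMUSG00000031144) was between 2.89 and 37.5 CPM in 8 libraries and at 0.150 CPM, or 3 counts, in aversive replicate 1 beside 59.2 CPM in aversive replicate 3. Gm14703 on the other strand covers 875 bases, 16.8%, of the exons of Syp, so that some of its reads may belong to either gene. Rab3a (chromosome 8 from 70754679 to 70758677, plus strand, ENSMUSG00000031840) lay between 13.6 CPM in appetitive replicate 2 and 116 CPM in aversive replicate 1. Both aversive libraries of Rab3a, at 116 and 48.4 CPM, were above every mock library, by less than 1 CPM for aversive replicate 3, and the other groups overlapped. Syp and Rab3a were each called in 0 of 6 comparisons by edgeR and 0 by DESeq2, with an unadjusted p under 0.05 in 0 and an adjusted p from 0.572 to 0.952 and from 0.528 to 0.904.

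Scg3, the granin, lies on chromosome 9 from 75643189 to 75684056 on the minus strand (ENSMUSG00000032181) and was the most abundant of the 9 genes per kilobase of exon in mock, aversive and appetitive libraries. It had 541, 238 and 239 CPM in mock, 441 and 389 CPM in aversive, 346 and 264 CPM in appetitive, and 4.46, 7.36 and 13.9 CPM in neutral libraries. The neutral libraries were below all others, both aversive libraries were above both appetitive ones, and mock overlapped each of these groups. As values on which the gene was selected, the log2 fold changes were 5.60 (SE 0.751) in aversive and 5.15 (SE 0.737) in appetitive against neutral, and -5.31 (SE 0.721) in neutral against mock. Among the groups that share a library kit, edgeR called Scg3 in 0 of 3 comparisons and DESeq2 in 0, with an unadjusted p under 0.05 in 0 and an adjusted p of 0.845, 0.904 and 0.919.

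Markers of astrocytes were low in the neutral libraries, as was Scg3. Because Scg3 was selected on that gap, the match supports nothing about a tie between Scg3 and astrocytes. The summed level of 8 astrocyte markers was 15406, 7029 and 4894 CPM in mock, 6638 and 7114 CPM in aversive, 7092 and 3360 CPM in appetitive, and 195, 374 and 289 CPM in neutral libraries. Aldoc was the most abundant of them in each neutral library, at 114 to 141 CPM, and 1 of the 8 had 0 counts in neutral replicate 1. Of the 8, 3 were called lower in neutral against mock, where 0.0861% of all tested genes were called, 4 higher in appetitive against neutral (6.17%) and 1 higher in aversive against neutral (0.0405%). Microglia markers, 7 genes, summed to 935 CPM or more in each mock, aversive and appetitive library and to 39.7, 332 and 260 CPM in neutral. Markers of the choroid plexus, 4 genes led by Ttr, ran the other way, with 130409, 21097 and 95018 CPM in neutral and at most 13699 CPM elsewhere. Markers of excitatory neurons, 4 genes, summed to between 0.890 CPM in appetitive replicate 2 and 175.5 CPM in aversive replicate 3. Of the other lists, 7 oligodendrocyte markers summed to between 7440 CPM in neutral replicate 3 and 802235 CPM in appetitive replicate 1, 4 markers of their precursors to between 64.4 and 826 CPM, 5 of endothelium to between 108 and 3395 CPM, 4 of ependyma to between 0.0782 and 282 CPM and 4 of fibroblasts to between 2.97 and 119 CPM. The part of these cell types in the level of Scg3 was not tested.

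**Figure D1:**
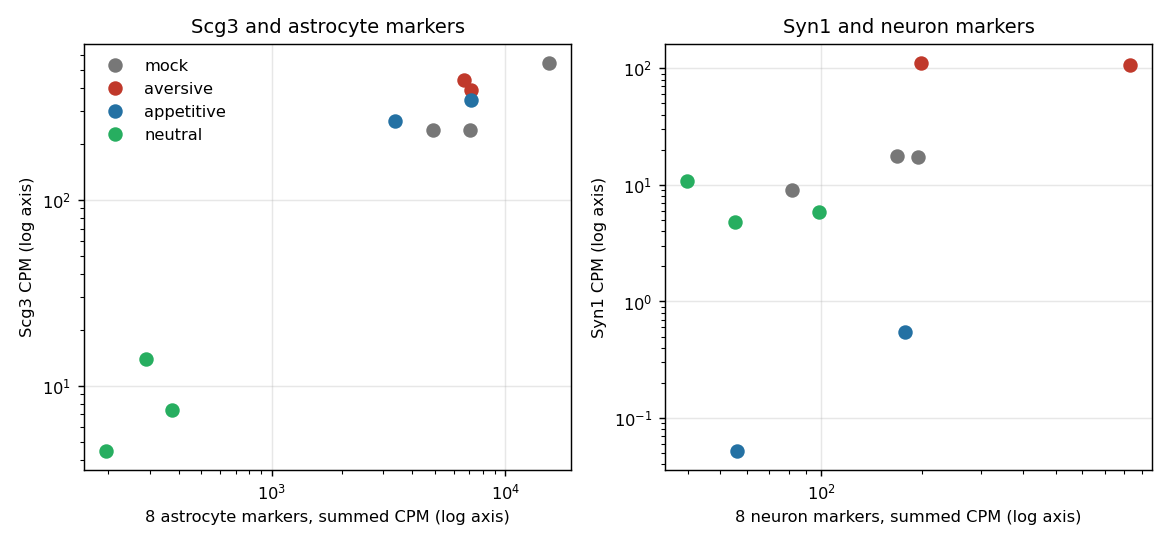
Scg3 against the summed level of 8 astrocyte markers and Syn1 against that of 8 neuron markers, in CPM on log axes, with 1 point per library coloured by group. The 3 neutral libraries sit at the lower left of the Scg3 panel, at 195 to 374 CPM of astrocyte markers, a gap on which Scg3 was selected. In the Syn1 panel the 2 appetitive libraries are the lowest, at 0.547 and 0.0524 CPM of Syn1. Elavl4 made up 73.66 of the 177 CPM of neuron markers in appetitive replicate 1.

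**Figure D2:**
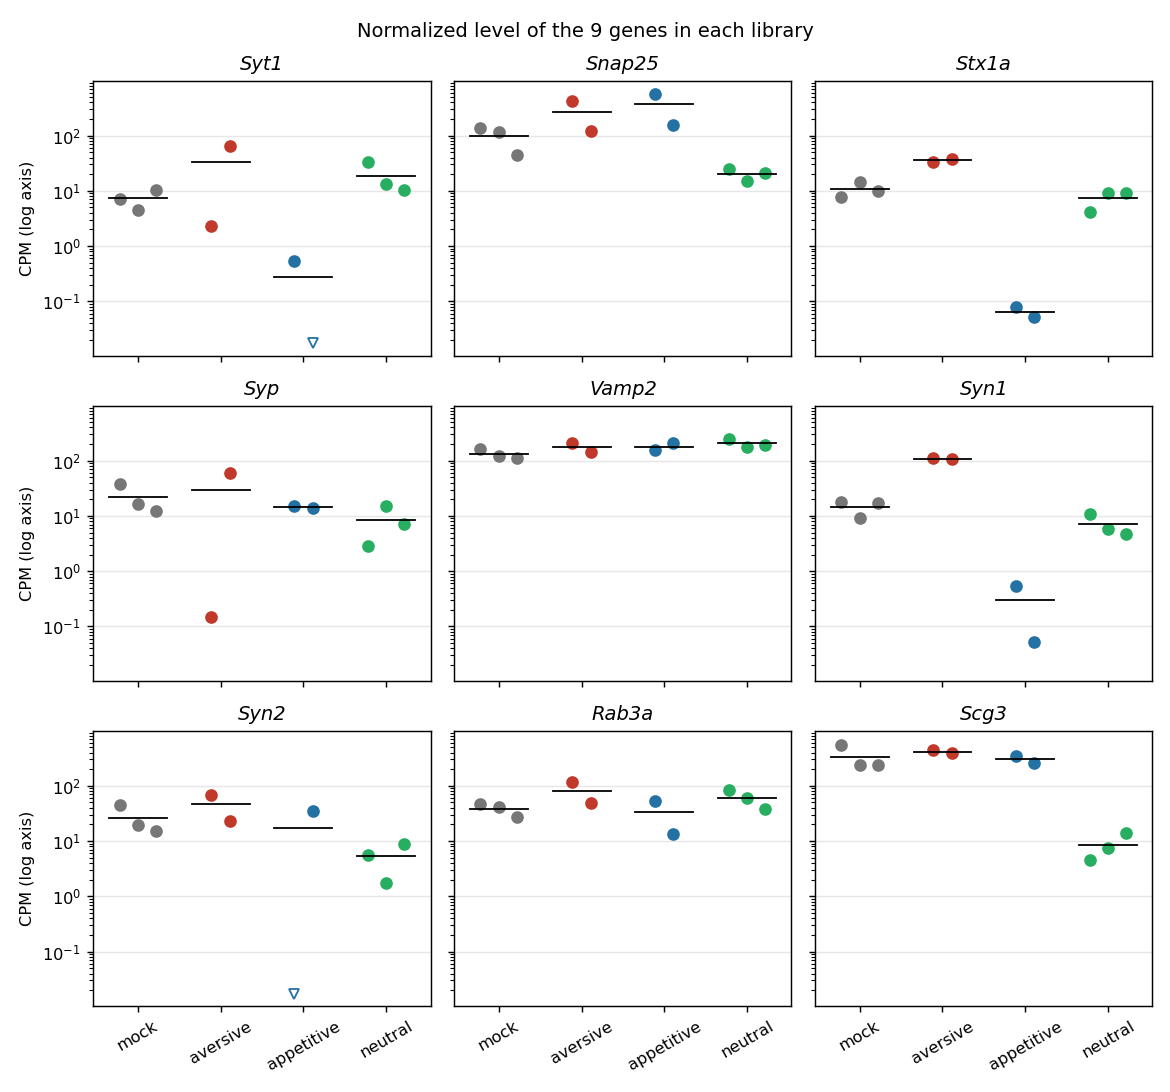
Normalized level of each of the 9 genes in CPM on a log axis, with 1 point per library, the mean of each group as a line, and open triangles at the lower edge for libraries with 0 counts. Stx1a and Syn1 sit lowest in the 2 appetitive libraries and highest in the 2 aversive ones, Snap25 and Scg3 are lowest in the 3 neutral libraries, and Vamp2 stays between 114 and 245 CPM.

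Per kilobase of exon, the order of the 9 genes changed with the group. In mock libraries, Scg3 led with 124 ± 63.9 CPM per kb (SD, n = 3), then came Vamp2 at 35.2 ± 7.18, Rab3a at 17.3 ± 4.75 and Snap25 at 14.6 ± 7.13 CPM per kb, and the last pair did not differ beyond their spread. Syn1, Syp, Stx1a and Syn2 followed between 3.78 and 4.43 CPM per kb, within their spread of one another, and Syt1 was last at 0.881 ± 0.351 CPM per kb. In aversive libraries (n = 2), Scg3 (151.7 ± 13.4) and Vamp2 (46.8 ± 12.3) again led, with Snap25 (40.1 ± 31.2) and Rab3a (36.9 ± 21.5) within their spread of Vamp2. Syn1, at 32.8 ± 0.952, was within the spread of Snap25 and Rab3a, and Stx1a, Syn2, Syp and Syt1 were between 3.96 and 13.4 CPM per kb. In appetitive libraries (n = 2), Scg3 (111 ± 21.1), Snap25 (53.8 ± 44.1) and Vamp2 (47.5 ± 9.15) were the highest, and Syn1, Syt1 and Stx1a, with 7 and 1, 7 and 0, and 1 and 1 counts, were the last and are too low to rank among themselves. In neutral libraries (n = 3), Vamp2 (53.8 ± 9.53) and Rab3a (27.4 ± 10.2) led, and the other 7 genes lay between 0.778 and 3.13 CPM per kb, each within the spread of its neighbours.

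As a description over the 10 libraries, which share groups and kits, the 9 genes did not follow a common profile. Pearson's r between the log2 CPM of their 36 pairs ran from -0.545 to 0.931 with a median of -0.0714. The closest pair was Stx1a and Syn1 (r = 0.931), and Syt1 went with Stx1a (r = 0.797). For Snap25 and Scg3, both lowest in the neutral libraries, r was 0.836 over the 10 libraries and 0.446 over the 7 that share a kit. The mean of their standardized profiles, which includes Scg3, had r = 0.919 with Syn1, 0.81 with Stx1a, 0.607 with Syt1, 0.578 with Rab3a and 0.533 with Syn2. With Scg3, Snap25, Vamp2 and Syp it had 0.302, 0.174, -0.0783 and -0.159, so likeness to the mean is not likeness to each gene. Of the tested genes outside the 9, the most alike to this mean were Hdac8 (r = 0.946), Itpka (0.942), Gm34552 (0.936), D630033A02Rik (0.924) and Klf5 (0.923). Itpka, an inositol trisphosphate kinase, had a mean of 50.02 CPM in aversive, 5.62 in mock, 0.0653 in appetitive and 1.485 in neutral libraries. Most alike to Scg3 over the 10 libraries were Slc1a2 (r = 0.994), Cldn10 (0.987), F3 (0.984), Ntsr2 (0.977) and Gm6145 (0.974), an order that carries the gap between neutral and the other groups on which Scg3 was selected. Over the 7 libraries that share a kit, r with Scg3 was 0.796, 0.955, 0.752, 0.852 and 0.252 for these genes. Slc1a2, the glutamate transporter of astrocytes and 1 of the astrocyte markers above, had a mean of 832 CPM in mock and 8.99 CPM in neutral libraries.

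Other genes of the pathway were read from 6 lists with 92 genes, of which 88 were tested. In appetitive against neutral, 1 of the 88 was called higher and 5 lower, against 6.17% of all tested genes, and the median log2 fold change was 0.05 beside -0.91 for all tested genes. That split moved to 15 higher and 18 lower with DESeq2, which called 29.6% of all tested genes, to 9 higher and 11 lower with no filter, and to 0 higher and 6 lower with library totals in edgeR. In appetitive against aversive, 0 were called higher and 3 lower, against 1.80% of all tested genes (median -0.51, or -0.34 with genes at 3 counts or fewer set to that floor, beside -0.48). In appetitive against mock, 0 were called higher and 3 lower, against 1.98% (median -0.68, or -0.56 with the floor, beside -1.45). By edgeR 0 of the 88 were called in aversive against neutral, aversive against mock and neutral against mock, with 17, 4 and 17 at an unadjusted p under 0.05, against 19.1%, 9.96% and 13.5% of all tested genes, and 11, 2 and 6 called by DESeq2, against 16.0%, 7.19% and 7.55%. Snap91 and Stx3 were among the genes called lower in appetitive against aversive, against mock and against neutral. These counts moved with single libraries. In appetitive against neutral, where 6 were called, the count was 1 without mock replicate 1 or 2, 3 without mock replicate 3 or neutral replicate 1, 0 without neutral replicate 3, 12 without either aversive library and 13 without appetitive replicate 2. In appetitive against aversive it was 0 without any 1 mock library or neutral replicate 1 or 3, 1 without neutral replicate 2, 5 without appetitive replicate 1 and 6 without either aversive library or appetitive replicate 2. In appetitive against mock it was 0 without any 1 mock or neutral library, 9 without either aversive library, 5 without appetitive replicate 1 and 7 without appetitive replicate 2, and in aversive against neutral 2 without either appetitive library.

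For the 13 tested genes of the list of SNARE machinery and fusion control, the median log2 fold change in appetitive against aversive was -2.19, or -1.92 with the floor, beside -0.48 over all genes. Against mock it was -1.8, or -0.9 with the floor, beside -1.45. Against neutral it was -0.83, or -0.7 with the floor, beside -0.91. In each of these comparisons 1 of the 13 was called lower, where 1.80%, 1.98% and 6.17% of all tested genes were called.

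Among 13 genes of vesicle endocytosis, which retrieve the membrane after release, Snap91 was called lower in the appetitive group in 3 comparisons, while the list's median was 0.45 against aversive, 0.95 against mock and 1.80 against neutral. Over all tested genes, 1.80%, 1.98% and 6.17% were called in these comparisons. Snap91, an adaptor of clathrin (chromosome 9 from 86765923 to 86880654, minus strand, ENSMUSG00000033419), had 26.9, 6.72 and 25.4 CPM in mock, 41.9 and 15.7 CPM in aversive, 0.0782 and 0.105 CPM in appetitive, and 95.9, 17.4 and 60.5 CPM in neutral libraries. The appetitive libraries, with 1 and 2 counts, were below all others. Its level was 246-fold higher in aversive (exact 95% counting interval 84.2 to 1200, adjusted p = 0.0371), 241-fold in mock (82.3 to 1170, adjusted p = 0.0405) and 573-fold in neutral (196 to 2780, adjusted p = 0.0190). The calls against aversive and mock were lost without any 1 mock library (0.0757 to 0.0863 and 0.0861 to 0.112), any 1 neutral library (0.0578 to 0.0949 and 0.0650 to 0.105) or appetitive replicate 1 (0.0620 and 0.0712), and the call against neutral without neutral replicate 3 (0.0604). Over the alternatives the adjusted p of Snap91 lay between 5.10e-07 and 0.711, 1.74e-07 and 0.155, and 1.80e-10 and 0.0951. Its log2 fold change ran from -8.79 to -7.29 against aversive, -8.29 to -7.12 against mock and -9.81 to -8.61 against neutral.

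Of 18 tested paralogs of the exocytosis genes that most tissues express, Stx3 was called lower in the same 3 comparisons. The shares of all tested genes called there were 1.80% against aversive, 1.98% against mock and 6.17% against neutral. Stx3 (chromosome 19 from 11775118 to 11819403, minus strand, ENSMUSG00000041488) had 4 counts in each appetitive library and 0.261 ± 0.0730 CPM (SD, n = 2), against 21.98 ± 5.15 CPM in aversive (log2 fold change -6.39, SE 1.33, adjusted p = 0.0404), 22.3 ± 10.6 CPM in mock (-6.41, SE 1.31, adjusted p = 0.0382) and 40.6 ± 5.71 CPM in neutral (-7.27, SE 1.36, adjusted p = 0.0196). The calls against aversive and mock were lost without any 1 mock library (0.0853 to 0.0996 and 0.0977 to 0.109) or any 1 neutral library (0.0741 to 0.104 and 0.0733 to 0.106), and the call against neutral without mock replicate 1 (0.0551), mock replicate 2 (0.0524) or neutral replicate 3 (0.0643). Over the alternatives the adjusted p of Stx3 lay between 2.40e-10 and 0.712, 7.19e-12 and 0.162, and 5.66e-16 and 0.0951. Its log2 fold change ran from -6.84 to -6.23 against aversive, -6.93 to -6.16 against mock and -7.99 to -6.97 against neutral.

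Of 16 tested genes of the vesicle membrane, Vamp1 and Syt12 were called lower in appetitive against neutral, against 6.17% of all tested genes. There, 6 of the 16 had an unadjusted p under 0.05 (29.3% of all tested genes) and 6 were called by DESeq2 (29.6%). The list's median log2 fold change was -1.83, or -1.55 with the floor, beside -0.91 over all genes. Vamp1, a paralog of Vamp2, had 1 count in each appetitive library and was 412-fold higher in neutral (exact 95% counting interval 114 to 3410, adjusted p = 0.0275), where Vamp2 itself was not called. Syt12 had 0 counts in both appetitive libraries and 7.95 ± 5.93 CPM in neutral (SD, n = 3), so that it was at least 33.9-fold lower in appetitive against the floor of 3 counts per library (adjusted p = 0.0476). Vamp1 (chromosome 6 from 125215551 to 125245964, plus strand, ENSMUSG00000030337) and Syt12 (chromosome 19 from 4445908 to 4477447, minus strand, ENSMUSG00000049303) both overlap genes on the other strand. The log2 fold change of Vamp1 ran from -9.37 to -8.2 over the alternatives. The call of Vamp1 was lost without any 1 mock library (0.0632 to 0.0689), appetitive replicate 1 (0.0541), neutral replicate 1 (0.0555) or neutral replicate 3 (0.0833), with a range of 2.86e-09 to 0.101 over the alternatives. The call of Syt12 was lost without any 1 mock, appetitive or neutral library (0.0611 to 0.108), with a range of 6.58e-06 to 0.145.

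The 18 genes of the secretory granule had 1 call, Pcsk1n, higher in appetitive against neutral, where 6.17% of all tested genes were called. In that comparison, 9 of the 18 had an unadjusted p under 0.05 (29.3% of all tested genes) and 8 were called by DESeq2 (29.6%). Their median was 0.76, or 0.21 with the floor, beside -0.91 over all genes. Pcsk1n, whose product inhibits a prohormone convertase (chromosome X from 7919822 to 7924410, plus strand, ENSMUSG00000039278), had 228, 149 and 71.5 CPM in mock, 787 and 372 CPM in aversive, 1063 and 34.3 CPM in appetitive, and 10.1, 32.0 and 15.1 CPM in neutral libraries. The neutral libraries were the lowest, but appetitive replicate 2 exceeded the highest of them by little. The fitted log2 difference was 4.85 (SE 1.18, adjusted p = 0.0395), and without appetitive replicate 1 it was 0.74 (adjusted p 0.615), so the call rests on that library. The adjusted p was also above 0.05 without any 1 mock library (0.0708 to 0.0784) or any 1 neutral library (0.0599 to 0.109), and lay between 1.04e-05 and 0.615 over the alternatives. In neutral against mock, the median of the 18 granule genes was -2.40 beside 0.08 over all genes, and 0 were called by edgeR, 7 had an unadjusted p under 0.05 (13.5% of all tested genes) and 5 were called by DESeq2 (7.55%). In that comparison all 8 astrocyte markers (median -5.18), all 7 of microglia (-4.31) and all 7 of oligodendrocytes (-0.94) were lower. All 3 tested markers of inhibitory neurons (-4.1), all 4 of excitatory neurons (-3.37) and 7 of the 8 neuron markers (-1.01) were lower too. All 4 markers of choroid plexus (3.51) and all 4 of ependyma (1.28) were higher. The part of any of these cell types in the granule genes was not tested. In aversive against neutral, the granule genes had a median of 2.19, or 1.82 with the floor, beside -0.15. There, 0 of the granule genes were called by edgeR, 5 had an unadjusted p under 0.05 (19.1%) and 5 were called by DESeq2 (16.0%). In appetitive against mock, their median was -2.62, or -1.77 with the floor, beside -1.45, with 0 called by edgeR, 7 at an unadjusted p under 0.05 (23.8%) and 9 called by DESeq2 (23.7%). The 10 genes of the active zone, the release site of the synapse, had 0 calls by edgeR in each of the 6 comparisons, with 0 to 7 at an unadjusted p under 0.05 and 0 to 6 called by DESeq2. The most were in appetitive against neutral, with 7 (29.3% of all tested genes) and 6 (29.6%) and a median of 2.43, or 1.82 with the floor, beside -0.91 over all genes. In aversive against neutral there were 5 (19.1%) and 2 (16.0%), with a median of 4.90 beside -0.15, and in neutral against mock 4 (13.5%) and 1 (7.55%), with a median of -2.92 beside 0.08.

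Promoter sequences, from 250 bases before to 50 after the start, were taken from RefSeq (GRCm38.p6) and were found for 7 of the 9 genes, not for Snap25 and Vamp2. Both strands were searched for RE1, the element bound by the neuronal repressor REST, spelled here as CAGCACC, any 2 bases and GGNCAG, and for the cyclic AMP response element TGACGTCA, which reads the same on both strands. RE1 was found in 0.0578% and the response element in 1.79% of the 32851 promoters, and of the 7 genes Syn1 alone held either, and it held both. The stretches before the first annotated exon base are shown for Syn1 and Stx1a, the pair called lower in appetitive against aversive. That of Scg3, the gene selected on its difference from neutral, is shown as well. Capitals mark RE1, then the response element, in Syn1 (chrX:20921005-20921168, minus strand), and the others are Stx1a (chr5:135023232-135023481, plus strand) and Scg3 (chr9:75684057-75684306, minus strand), with no match in capitals.
Syn1: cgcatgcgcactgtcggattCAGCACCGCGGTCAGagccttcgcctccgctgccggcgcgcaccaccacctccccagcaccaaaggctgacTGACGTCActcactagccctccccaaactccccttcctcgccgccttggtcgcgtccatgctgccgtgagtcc
Stx1a: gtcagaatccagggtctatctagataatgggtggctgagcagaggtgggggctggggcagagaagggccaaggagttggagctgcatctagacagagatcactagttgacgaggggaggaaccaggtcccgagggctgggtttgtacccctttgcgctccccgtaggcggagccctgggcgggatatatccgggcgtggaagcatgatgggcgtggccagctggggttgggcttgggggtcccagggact
Scg3: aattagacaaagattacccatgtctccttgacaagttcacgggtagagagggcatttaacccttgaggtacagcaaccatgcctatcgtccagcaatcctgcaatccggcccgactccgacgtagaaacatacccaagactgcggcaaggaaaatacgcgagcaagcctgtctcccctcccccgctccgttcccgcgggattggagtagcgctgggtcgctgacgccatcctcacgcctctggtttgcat

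A match is a run of letters and was not tested as a binding site. Stx1a, which went with Syn1 across the libraries, held neither run of letters in its window.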

How the data were processed

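The deposited files give raw counts per gene for 10 RNA-seq libraries. By their processing notes, the authors made these counts with STAR and featureCounts (Subread) on mm10, from the first 40 bases of the reads, without strand, over Ensembl genes. Of 53379 gene ids, 53274 matched GENCODE M21 positions. Genes passing filterByExpr (19754) were fitted with edgeR 4.0.16 (TMM, glmQLFit, glmQLFTest, two-sided) over 10 libraries in 4 groups, with Benjamini-Hochberg adjustment over all of them in each of 6 comparisons, and called at an adjusted p under 0.05. The common dispersion was 1.49. DESeq2 1.42.0, other scalings, filters, samples and a replicate block were alternatives, as was leaving out each library. R 4.3.3, Python 3.11.15, pandas 2.3.3 and scipy 1.17.1 were used. Named were the 9 genes, up to 3 called genes per list, direction and comparison by smallest p (not all that the rule picks are given), and the 5 most alike by Pearson's r on log2 CPM with a prior count of 2. Mbp, Rbfox3, Gad1, Slc17a7, Camk2a, Nefl, Nefm and Snhg11 were chosen after their values were seen. Lists were 6 pathway lists and markers of neurons, excitatory neurons, inhibitory neurons, astrocytes, oligodendrocytes and their precursors, microglia, endothelium, choroid plexus, ependyma and fibroblasts. Members and lists were chosen with earlier results of these data known.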

Additional observations from a re-analysis of the deposited data

How the results depend on the processing

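The alternatives gave 548 further values of the gene and comparison pairs that were followed, mostly those given with a fold change in the text. None of these changed direction, 373 kept their side of the threshold or, for the untested Scg3 values, moved by less than 1 SE, 147 lost a call and 28 gained one, and of 72 group levels under other scalings 5 moved by more than 1 SD. Outside those values, the fitted sign changed for Snap25 and Vamp2 in appetitive against aversive with library totals, and with DESeq2's size factors for Rab3a and Scg3 in appetitive against mock and for Vamp2 in appetitive against neutral. The counts of the 9 genes called changed as follows, and the cause was not tested. With DESeq2 the count was 3 in aversive against neutral, 4 in appetitive against neutral, 3 in appetitive against aversive, 1 in aversive against mock and 3 in appetitive against mock, and with DESeq2 on library totals 2, 4, 3, 0 and 3. With DESeq2's size factors in edgeR it was 0 in appetitive against mock, and with library totals 2 there and 3 in appetitive against neutral. With no filter it was 1 in aversive against neutral, 1 in appetitive against neutral and 0 in appetitive against mock. With at least 10 counts in every library, which removes genes low in the appetitive group from the fit, it was 1, 1, 0 and 0 in aversive against neutral, appetitive against neutral, appetitive against aversive and appetitive against mock. Fitted on the 2 groups alone, it was 0 in appetitive against neutral and against aversive, and on the 7 libraries without neutral 0 in appetitive against aversive and against mock. Leaving out 1 library gave 0 to 2 in aversive against neutral, 0 to 3 in appetitive against neutral, 0 to 3 in appetitive against aversive and 0 to 2 in appetitive against mock. In neutral against mock it was 0 under every alternative run.

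The alternatives for the pathway lists and their named genes were chosen after seeing the data. Apart from DESeq2 with its own size factors, the share of all tested genes called under each alternative is not given. Counts under those alternatives therefore cannot be read as results about the 9 genes or the lists. With DESeq2, 11, 33, 21, 2, 26 and 6 list genes were called in aversive against neutral, appetitive against neutral, appetitive against aversive, aversive against mock, appetitive against mock and neutral against mock, and with DESeq2 on library totals 10, 27, 22, 2, 28 and 7. With no filter the counts were 8, 20, 7, 0, 5 and 5. With DESeq2's size factors in edgeR 5, 2 and 1 were called in appetitive against neutral, aversive and mock. With at least 10 counts in every library, 0 were called in each comparison of the appetitive group. Fitted on the 2 groups alone, 0, 0 and 18 were called in appetitive against neutral, aversive and mock, and on the 7 libraries without neutral 0 in appetitive against aversive and against mock. Leaving out 1 library gave 0 to 2 in aversive against neutral, 0 to 13 in appetitive against neutral, 0 to 6 in appetitive against aversive and 0 to 9 in appetitive against mock.

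With the replicate number as a replicate block, 0 of the 9 genes and 0 of the list genes were called in each of the 6 comparisons. Libraries share only the number, with correlations of deviations between -0.0371 and 0.164 over 12 same-number pairs, 2 of them above 0.1.

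Groups of 2 or 3 libraries, a coefficient of variation of 122% between libraries, and values of 0 to 7 counts limit what can be seen. Below 3 counts, 0.0346 to 0.235 CPM by library, levels cannot be ranked. The neutral experience and its library kit cannot be told apart. The part of pooling and of cell make-up in the differences was not tested. Counting without strand leaves reads of overlapping genes mixed.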
